A study of Homo sapiens with 8 samples.

Results

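The core promoter regions examined here are the array probes that lie within 250 bp of an annotated transcription start. A probe was taken when it was no control spot, was not described as a divergent promoter, and carried at least 1 RefSeq start whose distance, the smallest over all transcripts listed for it, was at most 250 bp. This gave 40935 of 474411 probes, or 8.63%. The annotated distance alone chose them, and no measured value entered the choice. After removal of spots marked as outliers, 40832 core probes and 473007 probes in all were analysed. The core probes belonged to 16042 genes, with a median of 2 and at most 22 per gene, and 13174 genes had at least 2. A total of 18281 probes lay upstream of the start and 22551 at or downstream of it, and for 1206 probes the nearest start was listed under another name than the one the array gives the probe.

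SMAD3 binding was measured in A549 cells, a human lung adenocarcinoma cell line, by chromatin immunoprecipitation (IP) and hybridisation to promoter arrays. The unstimulated cells and the cells stimulated with 2 ng/ml TGFβ1 for up to 2 h (per the labels, while the study describes a shorter exposure within that span) came from the same line, and the labels name no transgene or knockdown in either group. Each condition had 2 replicates, and the sample titles do not say whether they were separate cultures or separate IPs. If they shared material, the p-values below measure technical spread alone. Each replicate was hybridised to 2 slides that carry different probes, so the 8 arrays gave 4 values per probe. The red dye (Cy5) marked DNA from the SMAD3 IP throughout, and the green dye (Cy3) marked the mock IP. For the mock IP, the channel labels name an anti-FLAG antibody and the extraction protocol a control IgG. A ratio is here the log2 of SMAD3 over mock signal, with the median of the array set to 0. The arrays measure DNA, so cell type markers could not be checked on them. With 4 replicates in all, precision is limited, and a single cell line limits what the groups stand for.

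The core promoter is the stretch around the start site where the general transcription factors and RNA polymerase II assemble. In many human genes it lies in a CpG island, a GC-rich stretch whose chromatin is often open. SMAD3 is the transcription factor that the activated TGFβ receptor phosphorylates. With SMAD4 it enters the nucleus and binds the short SMAD box AGAC, mostly together with other factors. Sites for it are known both next to start sites and far from them, and its classic targets are genes of the matrix, of growth arrest and of the feedback on the pathway itself.

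To show what such a region looks like, the 250 bases before the RefSeq start (GRCh38.p14) are given for 8 promoters named in the results below. They are the first gene of each set of strongest promoters whose window lies in no other annotated gene, and SMAD7 and TGFBI, classic TGFβ target genes. Each runs 5′ to 3′ on the strand of the gene. Capitals mark CAGAC, the longer form of the SMAD box, GGCGCC, a GC-rich SMAD element, and the palindrome GTCTAGAC, on either strand.
DHRS7B (chr17:21126714-21126963, plus strand): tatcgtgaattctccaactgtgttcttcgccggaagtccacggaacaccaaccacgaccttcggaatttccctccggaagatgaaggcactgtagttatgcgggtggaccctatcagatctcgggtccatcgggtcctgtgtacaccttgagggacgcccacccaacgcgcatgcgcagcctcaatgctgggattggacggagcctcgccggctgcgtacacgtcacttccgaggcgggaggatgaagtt
NDUFB8 (chr10:100529924-100530173, minus strand): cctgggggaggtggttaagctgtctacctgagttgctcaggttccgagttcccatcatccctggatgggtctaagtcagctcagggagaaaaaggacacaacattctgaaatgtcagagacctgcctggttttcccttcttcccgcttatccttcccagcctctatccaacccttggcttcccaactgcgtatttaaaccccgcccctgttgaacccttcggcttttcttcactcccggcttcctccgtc
SLC17A5 (chr6:73653993-73654242, minus strand): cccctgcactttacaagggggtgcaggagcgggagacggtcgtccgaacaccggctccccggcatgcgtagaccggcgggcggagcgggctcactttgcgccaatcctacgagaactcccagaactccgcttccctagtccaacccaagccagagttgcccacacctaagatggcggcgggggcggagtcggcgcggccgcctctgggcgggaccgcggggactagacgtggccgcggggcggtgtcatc
RPAIN (chr17:5419932-5420181, plus strand): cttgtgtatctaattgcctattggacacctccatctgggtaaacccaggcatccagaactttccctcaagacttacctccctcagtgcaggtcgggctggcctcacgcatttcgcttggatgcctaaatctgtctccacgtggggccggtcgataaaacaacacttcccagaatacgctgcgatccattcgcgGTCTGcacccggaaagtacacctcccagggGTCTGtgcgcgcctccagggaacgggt
MYLPF (chr16:30370684-30370933, plus strand): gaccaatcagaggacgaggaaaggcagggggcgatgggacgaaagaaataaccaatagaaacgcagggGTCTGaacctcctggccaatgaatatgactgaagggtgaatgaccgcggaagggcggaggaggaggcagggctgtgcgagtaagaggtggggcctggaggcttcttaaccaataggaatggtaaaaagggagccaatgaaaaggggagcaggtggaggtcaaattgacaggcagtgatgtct
LIN37 (chr19:35748326-35748575, plus strand): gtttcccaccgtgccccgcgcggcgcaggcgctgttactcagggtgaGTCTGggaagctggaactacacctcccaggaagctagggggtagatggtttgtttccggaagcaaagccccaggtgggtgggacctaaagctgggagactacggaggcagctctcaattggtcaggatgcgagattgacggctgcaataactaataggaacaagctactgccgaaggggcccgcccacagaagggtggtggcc
SMAD7 (chr18:48950966-48951215, minus strand): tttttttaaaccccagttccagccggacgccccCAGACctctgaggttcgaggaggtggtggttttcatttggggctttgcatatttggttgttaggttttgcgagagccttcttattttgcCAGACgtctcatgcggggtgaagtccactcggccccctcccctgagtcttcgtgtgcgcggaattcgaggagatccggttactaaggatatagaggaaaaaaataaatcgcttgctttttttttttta
TGFBI (chr5:136028738-136028987, plus strand): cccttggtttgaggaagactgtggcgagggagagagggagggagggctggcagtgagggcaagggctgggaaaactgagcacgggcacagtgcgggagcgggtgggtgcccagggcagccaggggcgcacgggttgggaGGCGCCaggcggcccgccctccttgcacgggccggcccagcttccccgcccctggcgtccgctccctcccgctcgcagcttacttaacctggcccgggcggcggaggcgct
RPAIN and SMAD7 each had 2 matches to CAGAC, MYLPF and LIN37 had 1, and TGFBI had 1 match to GGCGCC. The windows of DHRS7B, NDUFB8 and SLC17A5 held none of these letters. The palindrome was found in none of the 8. GC content ran from 48.0% in SMAD7 to 72.8% in TGFBI. By the annotated distance, all core probes of DHRS7B, NDUFB8 and MYLPF lay past the start, where the printed bases end. The same held for part of the core probes of SLC17A5, LIN37, SMAD7 and TGFBI. The matches thus need not lie in the stretch that the ratios below come from.

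Both channels were brightest at the start site. In the SMAD3 channel, the median core probe lay 2.75 and 3.64 above the array median on the log2 scale in the unstimulated replicates, and 2.90 and 3.43 above it in the TGFβ1-stimulated replicates. In the mock channel the same medians were 2.33, 3.19, 2.78 and 3.14. Proximal upstream probes, over 250 and up to 2000 bp before the start, had medians between -0.10 and -0.01 in both channels. The excess over proximal upstream probes was 3.24 ± 0.60 (SD, n = 2) unstimulated and 3.18 ± 0.38 stimulated in the SMAD3 channel. In the mock channel it was 2.85 ± 0.60 and 2.99 ± 0.27. All 4 replicates showed it in either channel, and an exact two-sided sign-flip permutation test over them gave p = 0.125, the smallest that 4 replicates allow.

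Core probes were also shorter than the others. Their median length was 45 bases against 56 for proximal upstream and 60 for distal upstream probes, and 62.9% of core probes but 25.9% of proximal upstream probes had 44 or 45 bases. Between probes of the same length, the excess of core over proximal upstream probes was 0.79 ± 0.05 unstimulated and 0.88 ± 0.01 stimulated in the SMAD3 channel, and 0.33 ± 0.03 and 0.43 ± 0.01 in the mock channel (SD, n = 2 each). The excess was thus smaller at equal length, and in each replicate it was larger in the SMAD3 than in the mock channel.

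**Figure D1:**
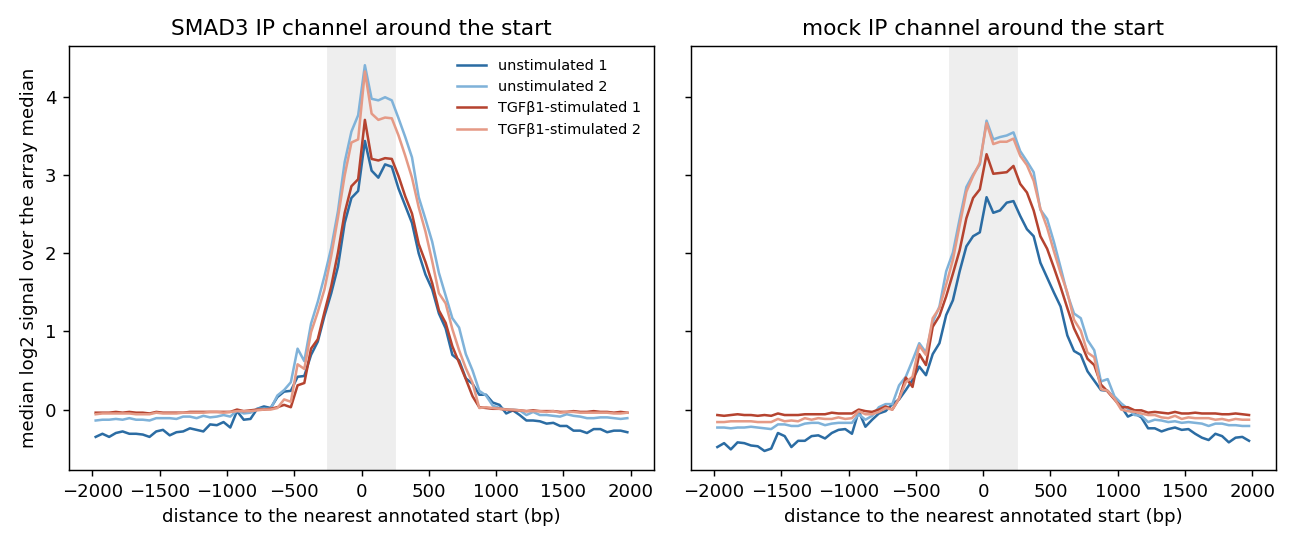
Median log2 signal over the array median, in bins of 50 bp of distance to the nearest annotated start (x axis, divergent promoters left out), for the SMAD3 IP channel (left) and the mock IP channel (right), 1 line per replicate, with the 250 bp on either side of the start shaded. Both channels peak in the bin from 0 to 50 bp, where the medians reach 3.44 to 4.41 for the SMAD3 IP and 2.72 to 3.70 for the mock IP.

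A probe was counted as measured when it was well above background in both channels on all 4 arrays of its slide. This held for 27505 core probes, or 67.4%, against 31.5% of proximal upstream, 20.8% of distal upstream and 34.0% of all probes. Where a channel is not above background, the software can write a surrogate value. Surrogates stood in the SMAD3 channel for 20.5% to 22.6% of core probes per replicate and for 51.5% to 55.3% of proximal upstream probes. Ratios are given below both for all probes and for the measured ones.

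Over all core probes the median log2 ratio was 0.04 and 0.02 in the unstimulated and 0.03 and 0.02 in the stimulated replicates, next to 0 for the whole array. Core minus proximal upstream probes came to 0.03 ± 0.02 unstimulated and 0.03 stimulated, positive in 4 of 4 replicates (exact two-sided sign-flip permutation test, p = 0.125, the smallest possible). Among measured probes the separation was wide. The core median was 0.23 and 0.21 unstimulated and 0.12 and 0.12 stimulated, while the proximal upstream median was -0.34 and -0.48, then -0.52 and -0.60. Every core value was above 0 and every proximal upstream value below it. The 0 is the median over measured and dim probes together. Over all measured probes the medians were -0.30 and -0.42 unstimulated and -0.47 and -0.54 stimulated. The difference of core minus proximal upstream was 0.63 ± 0.08 unstimulated and 0.68 ± 0.06 stimulated (SD, n = 2 each, exact permutation p = 0.125 over the 4 replicates). Between measured probes of the same length it was 0.60 ± 0.07 and 0.63 ± 0.04.

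The core median exceeded that of the other classes as well. Against measured distal upstream probes, beyond 3000 bp, the difference was 0.88 ± 0.11 unstimulated and 0.99 ± 0.09 stimulated. Against measured downstream probes, beyond 800 bp, it was 0.79 ± 0.09 and 0.85 ± 0.06, and against measured divergent promoter probes 0.59 ± 0.05 and 0.60 ± 0.02 (SD, n = 2 each). TGFβ1 did not move the separation from the proximal upstream probes by more than the replicates spread. It changed by 0.05, and the exact two-sided permutation test of 2 against 2 replicates gave p = 0.667, where 0.333 is the smallest p it can give.

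**Figure D2:**
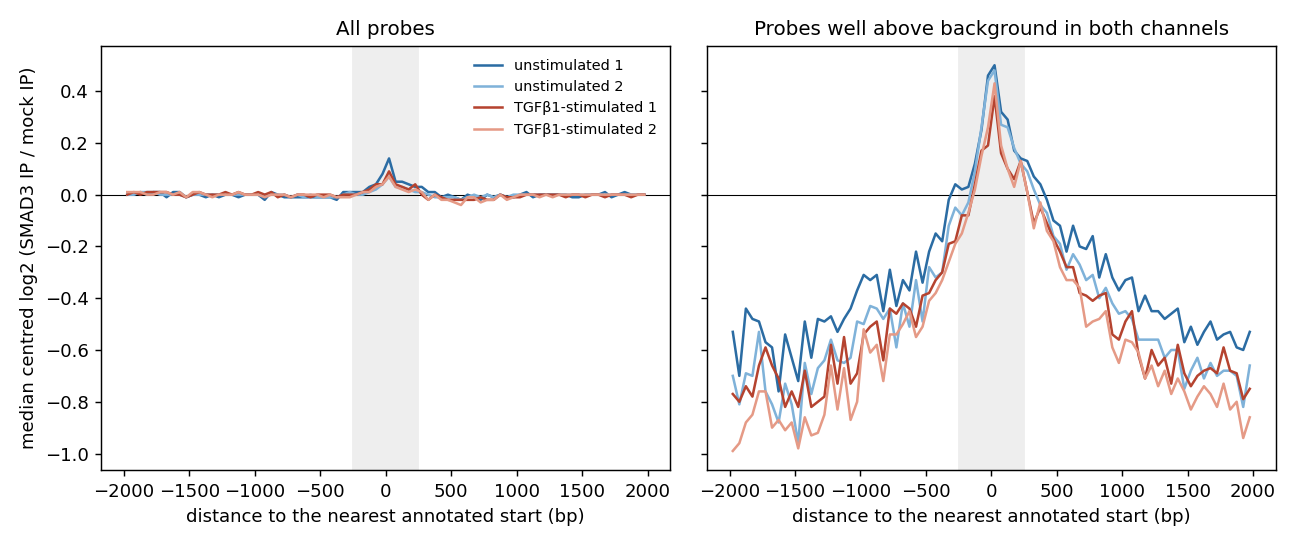
Median centred log2 ratio, SMAD3 over mock (y axis), in bins of 50 bp of distance to the nearest annotated start (x axis), 1 line per replicate, for all probes (left) and for probes well above background in both channels (right), with 250 bp on either side of the start shaded. In measured probes the ratio is highest from 0 to 50 bp, at 0.38 to 0.50, and falls below 0 on both sides.

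Within the core the ratio was highest at the start itself. Measured probes from 0 to 50 bp past it had medians of 0.50 and 0.48 unstimulated and 0.38 and 0.43 stimulated. From 250 to 200 bp before it the medians were 0.02, -0.08, -0.08 and -0.15, and from 200 to 250 bp past it they were 0.14, 0.12, 0.13 and 0.13. At the limit of the rule nothing jumped. Measured probes in the last 50 bp inside it, on either side of the start, had medians of 0.09, 0.04, 0.04 and 0.05, and those in the first 50 bp outside had 0.09, 0.02, -0.05 and -0.06.

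Single probes were then tested against the spread between replicates with limma, with Benjamini-Hochberg adjustment over all 473007 probes at 0.05. In unstimulated cells 10357 core probes, 25.4%, were enriched in the SMAD3 IP over the mock IP and 8155, 20%, were depleted. Of all probes 8.92% were enriched and 17.4% depleted. After TGFβ1, 9817 core probes (24.0%) were enriched and 9163 (22.4%) depleted, against 8.22% and 18.5% of all probes. Enrichment was thus called far more often in core probes than in all probes, and depletion somewhat more often. Proximal upstream probes were enriched in 7.83% and 7.25% of cases. Part of this gap goes with brightness. Of the measured core probes 36.0% were enriched unstimulated and 34.2% stimulated, and of all measured probes 22.5% and 20.9%. Depletion was called in 24.7% and 28.3% of measured core probes, against 34.2% and 38.5% of all measured probes.

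The split of the calls depended on the scaling. Enriched probes made up 55.9% of the core calls unstimulated and 51.7% stimulated with median centring, and 70% and 70.1% when a loess curve of ratio on brightness was taken off each array. Over all probes the share was 33.8% and 30.8% with median centring and 49.6% and 50.6% with loess. With another background correction, normexp on the raw signals, only 2.41% of core probes were enriched and 1.31% depleted unstimulated, against 0.698% and 0.975% of all probes. Without unstimulated replicate 1 the share enriched unstimulated was 13.4%, and without unstimulated replicate 2 it was 11.6%. Without TGFβ1-stimulated replicate 1 or 2 the share enriched after stimulation was 15.4% or 14.6%.

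**Figure D3:**
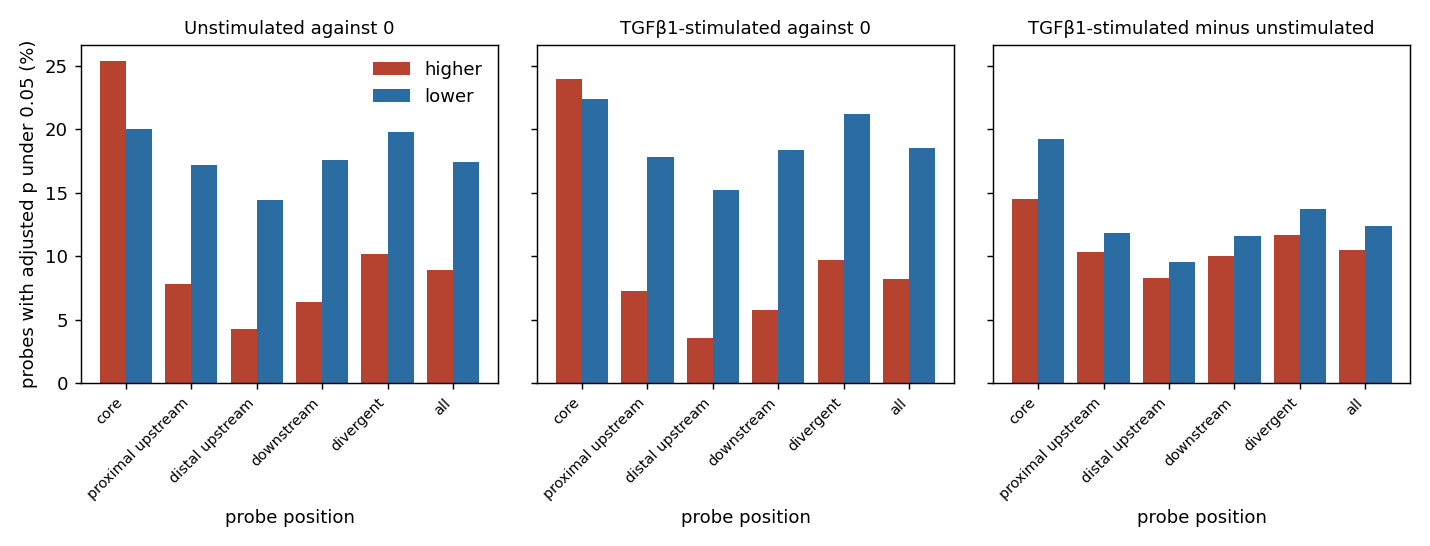
Percent of probes with an adjusted p under 0.05 in the limma fit (y axis) by position class (x axis), for unstimulated cells, TGFβ1-stimulated cells and the difference, with probes higher in red and lower in blue. Among the classes drawn, core probes alone were enriched more often than depleted in both conditions, 25.4% against 20% and 24.0% against 22.4%.

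The same stretches were called in both conditions more often than they were exchanged. A total of 6692 core probes were enriched in both, which is 64.6% of those enriched unstimulated and 68.2% of those enriched after TGFβ1. Over all probes these shares were 47.9% and 51.9%. Depletion in both was called for 4016 probes, 49.2% and 43.8% of the lists, next to 47.5% and 44.9% over all probes. Another 1318 core probes were enriched unstimulated and depleted after TGFβ1, 12.7% and 14.4% of the lists, next to 20.3% and 9.79% over all probes. The other way went 1032, or 12.7% and 10.5% of the lists, next to 8.06% and 17.1% over all probes.

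By the same fit, the ratio of many core probes differed between the conditions. It was higher after stimulation at 5905 (14.5%) and lower at 7853 (19.2%), against 10.5% and 12.4% of all probes. Of the measured core probes 18% were higher and 25.1% lower, next to 19.0% and 25.5% of all measured probes. Leaving out any 1 of the 4 replicates lowered the share of core probes with a higher ratio to between 5.15% and 7.41% and that with a lower ratio to between 5.62% and 11.5%, and normexp gave 2.87% and 3.46%, against 1.74% and 2.91% of all probes. These shares lie near the background, so the change is no result about core probes. The ratio of a core probe correlated with r = 0.925 between the unstimulated replicates and 0.941 between the stimulated ones, and on average with 0.367 between conditions (across 40832 probes, which are not independent). In all probes these values were 0.896, 0.918 and 0.214.

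Both channels differed at changed probes. These were picked by the change in their ratio, so part of the shifts in either channel follows from that choice. Signals were centred here on the measured probes of each array. Of the 4957 measured core probes with a higher ratio, the SMAD3 signal of both stimulated replicates lay above both unstimulated ones in 64.7%, and the mock signal lay below both in 78.8%. The median change was 0.74 in the SMAD3 channel and -1.29 in the mock channel. Of the 6908 probes with a lower ratio, the SMAD3 signal lay below in 53.6% and the mock signal above in 76.3%, with median changes of -0.42 and 1.07. Over all 27505 measured core probes the mock signal of the 2 conditions did not overlap in 41.9% (higher) and 32.6% (lower), and the SMAD3 signal in 41.7% (higher) and 27.9% (lower).

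Neighbouring core probes of a gene went together only in part. For pairs whose starts were over 100 and up to 200 bp apart, the mean ratios correlated with r = 0.30 unstimulated and 0.296 stimulated over 17941 pairs. For pairs over 300 and up to 500 bp apart, r was 0.137 and 0.123 over 970 pairs. Probes of a pair share the array, and near pairs share chromatin fragments. Among the 13174 genes with at least 2 core probes, 1729 had at least 2 probes enriched and none depleted unstimulated, and 2412, or 18.3%, had both an enriched and a depleted probe. For the change with TGFβ1, 754 genes had at least 2 probes higher and none lower, 1181 had at least 2 lower and none higher, and 1491 had both. For genes with exactly 2 core probes, both were enriched unstimulated in 10.5%, both depleted in 5.57% and 1 of each in 9.2%, against 6.42%, 5.47% and 6.41% of all gene-by-position units of 2 probes. For the change these shares were 3.96% (both higher), 5.73% (both lower) and 5.01% (1 of each). Over all units of 2 probes they were 3.23%, 4.33% and 3.85%, so the core lay near the background.

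For single genes, the core probes were averaged per replicate and tested with limma on all 74704 gene-by-position units. Of the 16042 core promoters 5299 (33.0%) were enriched and 3989 (24.9%) depleted unstimulated, against 14.4% and 32.0% of all units. After TGFβ1 4785 (29.8%) were enriched and 4580 (28.6%) depleted, against 12.6% and 34.7%. The ratio rose with TGFβ1 at 2888 (18%) and fell at 4062 (25.3%), against 15.8% and 20.1% of all units. The genes named next were the strongest in each direction among the 6064 core promoters with at least 2 probes, all of them measured. They were chosen by their values and are given as a description. With normexp, 37 of the called values of the promoters that the naming rule takes stayed called, 78 did not pass and 6 turned sign.

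DHRS7B, an enzyme of the dehydrogenase/reductase family, had the highest ratio in unstimulated cells. Its 2 core probes, 29 and 134 bp past the start, averaged 8.89 and 8.55 unstimulated and 1.08 and 0.49 after TGFβ1. The change was -7.93 ± 0.26 (SE, limma adjusted p = 0.000687), with no overlap between the conditions. With normexp it was -6.02 and not called (limma adjusted p = 0.0525). Its SMAD3 signal fell from 9.05 and 8.66 over the array's measured probes to 0.50 and 0.09, while the mock signal stayed between -1.39 and -0.29. FAM91A1, which acts in trafficking to the Golgi, had 8.98 and 8.17, then 1.53 and 1.38. COG2, a subunit of the conserved oligomeric Golgi complex, had 8.49 and 7.97, then 1.76 and 1.44. In all 3 the ratio was above 0 in every replicate and lower in both stimulated ones.

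LIN37, a subunit of the DREAM complex that represses cell cycle genes, had the largest change among these promoters. The ratio was 8.53 and 7.75 unstimulated and -6.55 and -6.15 after TGFβ1, a change of -14.49 ± 0.32 (SE, limma adjusted p = 0.000613). With normexp the change was -8.79 and still called, while neither condition alone was. All 3 of its core probes, at -205, -96 and 132 bp, went the same way. The SMAD3 signal went from 7.29 and 6.98 to -0.41 and -0.41. The mock signal went from -1.68 and -1.23 to 5.34 and 5.10. The high signal thus stood in the SMAD3 channel of the unstimulated arrays and in the mock channel of the stimulated ones. The same exchange was seen at LOC51035 (now UBXN1, a cofactor of the segregase p97), where the ratio was 6.62 and 6.46, then -4.59 and -4.12. C10orf28 (now R3HCC1L) had 4.93 and 4.96, then -6.84 and -5.82, although its probe at -57 bp was low in both conditions. ARL2, a small GTPase of tubulin folding, had 6.07 and 5.56, then -4.18 and -5.14. With normexp the change at ARL2 was -5.16 (adjusted p = 0.145) and at LOC51035 -6.19 (adjusted p = 0.0594), and both calls were lost.

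In the other direction, the small nucleolar RNA U8 (SNORD118), which is needed to mature ribosomal RNA, had -2.70 and -2.87 unstimulated and 10.57 and 9.80 stimulated. The change was 12.97 ± 0.29 (SE, limma adjusted p = 0.000613). Its SMAD3 signal rose from 0.27 and -0.51 to 9.53 and 8.77 and its mock signal fell from 2.52 and 1.89 to -1.84 and -1.67. The RefSeq gene lies within TMEM107, a ciliary membrane gene, whose own core promoter had 2.26 and 2.02, then 7.94 and 8.05. There 1 probe, at -192 bp, went from -2.74 and -2.84 to 8.17 and 7.39, and the probe at -79 bp was high in both conditions, so that within 100 bp of the start the change at TMEM107 was 1.13 (adjusted p = 0.0984). With normexp it was 4.55 (adjusted p = 0.104). TRPV2, a cation channel, had -4.90 and -5.25, then 4.01 and 3.97 over 4 probes. The probe at 203 bp stayed low, with -2.39 and -2.30, then -1.97 and -2.08. That at 103 bp rose from -5.77 and -5.73 to only 1.35 and -0.26. With normexp the change of 4.53 at TRPV2 was not called (adjusted p = 0.107).

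MYLPF (now MYL11), a myosin light chain of fast skeletal muscle, had -2.43 and -2.23, then 6.60 and 6.38. PTPN13, a protein tyrosine phosphatase, had -1.64 and -1.58, then 6.70 and 6.10. Its probe at -246 bp was above 0 in both conditions, with 1.74 and 1.04, then 4.15 and 3.70. The probe at 112 bp went from -5.01 and -4.20 to 9.25 and 8.49. At MYLPF the SMAD3 signal rose from 0.17 and -0.03 to 9.20 and 9.46, while the mock signal, 2.16 and 1.74 before, was 1.79 and 2.44 after. SLC17A5, the lysosomal sialic acid transporter, was near 0 unstimulated, at -0.02 and 0.50, and had 6.70 and 6.30 after TGFβ1. Its change was 6.26 ± 0.25 (SE, limma adjusted p = 0.000803).

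The most depleted promoters had a high mock signal. In unstimulated cells SDF2, an endoplasmic reticulum chaperone component, had -7.02 and -6.83, and its mock signal was 6.88 and 6.44 over the measured probes with the SMAD3 signal at 0.31 and 0.07. ESCO1, a cohesin acetyltransferase, had -6.92 and -6.56, COX6C, a subunit of cytochrome c oxidase, -6.81 and -5.82, and NDUFB8, a subunit of respiratory complex I, -5.97 and -5.74. All 4 rose with TGFβ1, to 0.21 and -0.71 in SDF2 and -1.59 and -0.65 in NDUFB8. With normexp the rise was called at ESCO1 but not at SDF2 (4.6, limma adjusted p = 0.0547), COX6C (2.87, 0.182) or NDUFB8 (2.37, 0.312), and the unstimulated depletion of these 3 was lost as well, with -4.58, -3.09 and -2.37. After TGFβ1 the lowest were RPAIN, which imports replication protein A, at -8.03 and -6.93, LOC390667 (now PTX4), a pentraxin, at -7.42 and -6.94, the kinase AKT2 at -7.42 and -6.76 and HAMP, the iron hormone hepcidin, at -7.39 and -6.51. The mock signal at RPAIN was -3.27 and -3.73 before and 6.13 and 6.09 after, and its SMAD3 signal was between -2.15 and -0.21 throughout. The change with normexp was not called at LOC390667 (-4.09, limma adjusted p = 0.122) or AKT2 (-3.42, 0.0632).

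**Figure D4:**
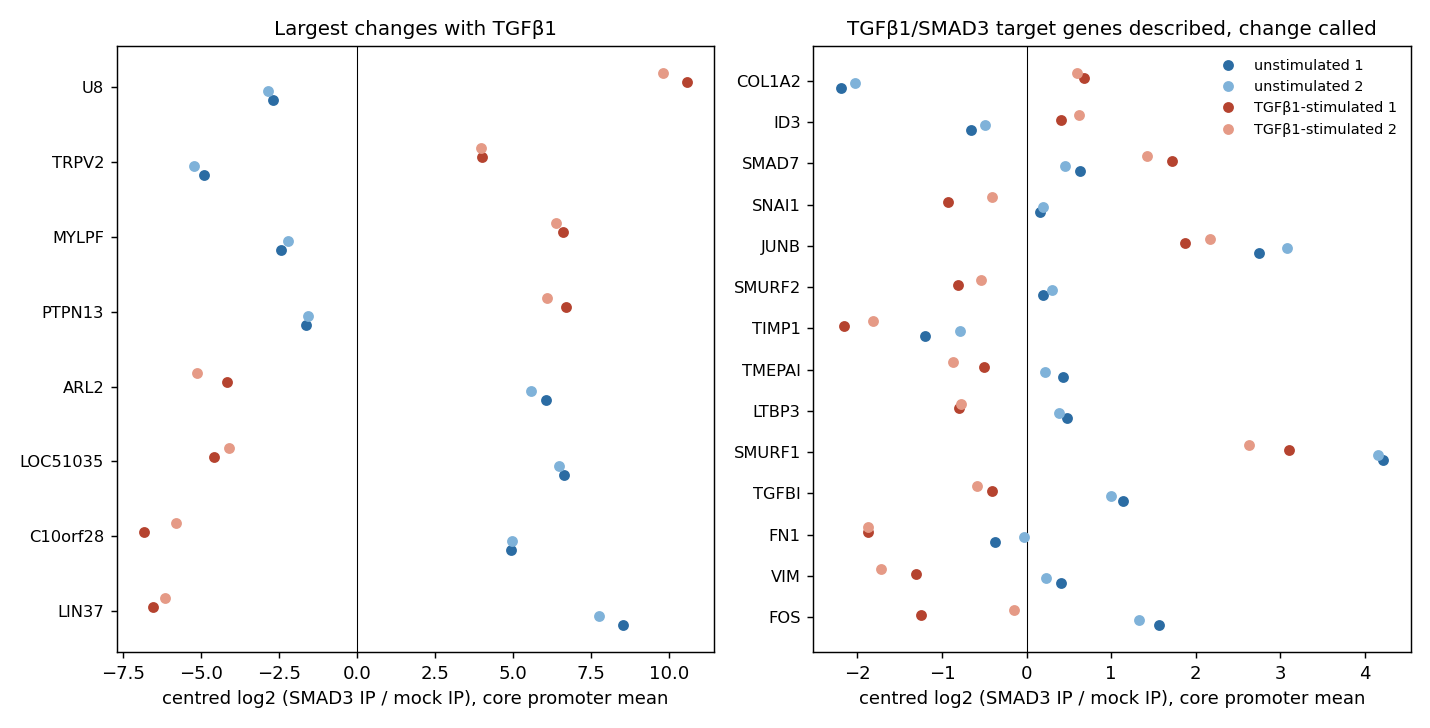
Mean centred log2 ratio, SMAD3 over mock, across the core probes of each gene (x axis), 1 point per replicate, for the 4 promoters that rose most and the 4 that fell most (left) and the TGFβ1/SMAD3 target genes described here whose change was called (right). On the left the 2 conditions lie on opposite sides of 0 in all 8 genes, and on the right the target genes stay between -2.2 and 4.22.

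Known target genes of TGFβ1 and SMAD3 formed a list of 35 genes, all with a core probe. Unstimulated, 11 were enriched (31.4%) and 10 depleted (28.6%), with a median of 0.18, next to 33.0%, 24.9% and 0.04 over all core promoters. After TGFβ1, 10 were enriched (28.6%) and 15 depleted (42.9%), with a median of -0.23 against 0.02. The ratio rose at 3 (8.57%) and fell at 12 (34.3%), with a median change of -0.42 against -0.07, where 18% of all core promoters rose and 25.3% fell. Much more of the list fell than rose, and the other 20 genes did not pass the test. With normexp the calls of the change were kept at COL1A2 (1.78) and VIM (-1.36) and lost at every other gene of the list described below.

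The 3 that rose were SMAD7, COL1A2 and ID3. SMAD7, the inhibitory SMAD of the feedback on the receptor, had 0.63 and 0.45 unstimulated and 1.72 and 1.43 stimulated, a change of 1.04 ± 0.16 (SE, limma adjusted p = 0.0121). It was enriched in both conditions. With normexp the change was 0.43 (limma adjusted p = 0.635). The call of the change was lost without unstimulated replicate 1 (1.13, limma adjusted p = 0.0506), unstimulated replicate 2 (0.95, 0.0679) or TGFβ1-stimulated replicate 1 (0.9, 0.0538). Its probe at -121 bp went from 0 in both replicates to 1.89 and 1.77, whereas the probe at 246 bp, with 1.25 and 0.89, then 1.54 and 1.1, did not pass (adjusted p = 0.644). COL1A2, a chain of type I collagen, had -2.20 and -2.03, then 0.68 and 0.60. Its change was 2.75 ± 0.13 (SE, limma adjusted p = 0.000917) and all 3 probes rose. The mock signal there fell from 3.42 and 3.66 to 0.50 and 0.32, and the SMAD3 signal, 1.4 and 1.95, then 1.48 and 1.5, overlapped between conditions. ID3, an inhibitor of basic helix-loop-helix factors, had -0.66 and -0.49, then 0.41 and 0.62, but only 1 of its 3 probes was measured, and with starts from all annotation sources its change was 0.40 (adjusted p = 0.0634).

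Among the 12 that fell, several code for matrix and mesenchymal proteins. VIM, the intermediate filament vimentin, had 0.41 and 0.23, then -1.31 and -1.72. Of its 3 probes only that at -231 bp passed the test of the change, from -1.08 and -1.15 to -5.77 and -6.23. The SMAD3 signal of VIM did not fall, with 1.52 and 1.04, then 2.13 and 1.99. Its mock signal rose from 0.93 and 0.49 to 3.14 and 3.12. FN1, fibronectin, had -0.37 and -0.03, then -1.87 and -1.88. Its change with normexp was -0.51 (limma adjusted p = 0.211). Here the SMAD3 signal fell, from 0.81 and 1.36 to -0.43 and -0.13. TGFBI, a matrix protein induced by TGFβ, had 1.14 and 1.00, then -0.41 and -0.58, a change of -1.56 ± 0.13 (SE, limma adjusted p = 0.00287). With normexp this was -0.85 (limma adjusted p = 0.102), and the value after TGFβ1 turned above 0 with normexp (0.12), with loess (0.03) and within 100 bp (0.59). Its probe 24 bp past the start was enriched in all replicates, with 3.53 and 3.35, then 3.33 and 2.93, while the probe at -202 bp went from 0.66 and 0.41 to -3.07 and -3.39. The SMAD3 signal of TGFBI was 2.74 and 2.36, then 2.79 and 2.89. Its mock signal rose from 1.43 and 1.06 to 2.90 and 2.88. TIMP1, an inhibitor of matrix proteases, had -1.20 and -0.79, then -2.16 and -1.81, and was depleted in both conditions. Its change of -0.99 was lost as a call without any 1 of the 4 replicates (-0.78 to -1.2, limma adjusted p from 0.055 to 0.13). The SMAD3 signal of TIMP1 fell from 0.98 and 1.21 to 0.47 and 0.62.

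The immediate early genes FOS and JUNB were enriched in unstimulated cells. FOS had 1.57 and 1.33, then -1.25 and -0.15, and of its probes only that at 166 bp passed the test of the change. JUNB had 2.75 and 3.08, then 1.88 and 2.17, and remained enriched. SMURF1, a ubiquitin ligase of receptor turnover, had the highest unstimulated ratio of the list, at a single probe, with 4.22 and 4.16, then 3.11 and 2.63. SMURF2 had 0.19 and 0.30, then -0.81 and -0.54. The mock signal rose at FOS from -1.67 and -1.72 to 1.25 and 1.13, and at JUNB from 0.28 and 0.03 to 1.31 and 1.22. The SMAD3 signal of FOS and JUNB did not fall, and was higher in both stimulated replicates. At SMURF1 the SMAD3 signal fell from 6.24 and 5.71 to 4.80 and 4.73. At SMURF2 it fell from 5.32 and 5.50 to 3.55 and 4.47, and the mock signal was lower as well. JUNB lost its call without any 1 of the 4 replicates (-0.73 to -1.06, limma adjusted p from 0.0576 to 0.117). With normexp the change was -0.23 at JUNB, -0.82 at FOS, -0.67 at SMURF1 and -0.88 at SMURF2, and the value of SMURF2 after TGFβ1 was 0.05 with loess. Without unstimulated replicate 1 or 2 the calls were also lost at FOS (-2.03 and -2.27), SMURF1 (-1.29 and -1.35) and SMURF2 (-0.97 and -0.86), and at SMURF2 also without TGFβ1-stimulated replicate 1 (-0.78).

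Of the remaining ones, LTBP3, which binds latent TGFβ, had 0.48 and 0.38, then -0.80 and -0.78. This rested on the probe at -85 bp, which went from 2.12 and 2.03 to -1.55 and -1.46, since the probe at -191 bp rose from -1.16 and -1.27 to -0.04 and -0.11. The call was lost with starts from all annotation sources (-0.32, limma adjusted p = 0.0935) and with normexp (-1.36, 0.0677). TMEPAI (now PMEPA1), a feedback inhibitor of the pathway, had 0.43 and 0.22, then -0.50 and -0.87. Of its 7 core probes, 1 at -72 bp went from 0.17 and 0.54 to -7.16 and -6.78, and no other passed the test of the change. SNAI1, a repressor of epithelial genes, had 0.16 and 0.19, then -0.93 and -0.41. The mock signal rose at TMEPAI from -1.52 and -1.68 to -0.47 and -0.48, and at SNAI1 from 1.17 and 1.08 to 2.07 and 1.96. The SMAD3 signal of TMEPAI overlapped between conditions, and that of SNAI1 was higher after TGFβ1. At LTBP3 the SMAD3 signal fell from 4.05 and 3.89 to 2.03 and 2.31, and the mock signal fell as well. Without unstimulated replicate 1 or 2 the calls were lost at TMEPAI (-0.9 and -1.12) and SNAI1 (-0.86 and -0.84), at TMEPAI also without TGFβ1-stimulated replicate 2 (-0.82) and at SNAI1 without TGFβ1-stimulated replicate 1 (-0.59).

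A further 12 list members were called in a condition but not in the change. ID2, ID1, SKI, SKIL and SNAI2 were enriched in both conditions, with ID2 at 1.91 and 1.53, then 1.47 and 1.1, although ID1 unstimulated was -1.23 within 100 bp. ID2, SKI and SKIL had a single core probe each. With normexp the calls in both conditions were kept at ID1 and ID2 and lost at SKI, SKIL and SNAI2. As averages over their core probes, CDKN1A, CDKN2B, TAGLN, BHLHB2 (now BHLHE40), ACTA2 and TGFB1 were depleted in both, and COL1A1 unstimulated, at -0.87 and -0.59. With normexp every one of these depletion calls was lost. Only 1 of 3 probes was measured at ACTA2 and at COL1A1, and 1 of 2 at CDKN2B. TGFB1, the gene of the ligand, had -0.59 and -0.58, then -0.40 and -0.27, and was 0.04 and 0.4 with loess. Its probe at -146 bp rose from -0.21 and -0.1 to 1.28 and 1.48 (limma adjusted p = 0.00891). The probe at 172 bp fell from -0.64 and -0.7 to -1.93 and -1.84 (limma adjusted p = 0.0091). Signs also turned after TGFβ1 at CDKN1A (0.08) and TAGLN (0.05) with normexp, and unstimulated at BHLHB2 (0.18) within 100 bp and at TAGLN with normexp (0.01) and with all annotation sources (0.39). CDKN1A after TGFβ1 was lost without TGFβ1-stimulated replicate 1 (-0.82) or 2 (-0.45). The CDKN1A probe at -174 bp was enriched in both conditions, with 1.54 and 1.41, then 1.63 and 1.46. TAGLN, the smooth muscle protein transgelin, had -1.61 and -0.75, then -1.08 and -0.81, with 1 of 2 probes measured, and its measured probe had -0.81 and -0.40, then 0.48 and 0.35.

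COL7A1, type VII collagen, had values that spread widely between replicates, with 0.99 and -0.65 in the unstimulated and 0.42 and 0.10 in the stimulated replicates. FOXA2, a lung and liver transcription factor, had -0.26 and -0.29, then 0.22 and -0.38, with 1 of 4 probes measured. That probe, at -37 bp, was enriched in both conditions, with 1.37 and 1.9, then 1.37 and 2.03 (limma adjusted p = 0.0256 and 0.0231), and did not pass the test of the change. SMAD6, the other inhibitory SMAD, had a single core probe that was not well above background on all arrays, with 1.01 and -0.03, then 0.15 and -0.61. As averages over their core probes, none of the 3 passed the limma test in either condition or in the change.

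Over all core promoters 33.0% were enriched and 24.9% depleted unstimulated, 29.8% and 28.6% stimulated, and 18% rose and 25.3% fell. The SMADs and TGFβ receptors had 17 core promoters, of which 7 were enriched and 3 depleted unstimulated, 7 enriched and 5 depleted stimulated, 6 higher with TGFβ1 and 4 lower. Genes of the core transcription machinery, such as subunits of RNA polymerase II and the general factors, were enriched in 14 of 38 cases (36.8%) and depleted in 4 (10.5%) unstimulated. With TGFβ1 2 of them rose and 14 fell (36.8%), with a median change of -0.33. Cytosolic ribosomal protein genes were enriched in 26 of 72 (36.1%), and of these promoters 12 rose and 14 fell. Proteasome subunits had 11 of 42 enriched and 15 depleted unstimulated, then 13 and 13. Replication-dependent histones had 8 of 38 enriched and 5 depleted unstimulated.

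Olfactory receptor genes, which are silent in most cells, gave little signal. Of the core probes of 268 olfactory receptor genes only 9.73% were measured, against 67.4% of all core probes. Their median SMAD3 signal lay between -0.36 and -0.08 of the array median, and 16 promoters (5.97%) were enriched and 48 (17.9%) depleted unstimulated. Keratin-associated proteins, which are made in hair, had none of 26 enriched and 7 depleted unstimulated and none and 11 after TGFβ1. Liver genes had none of 19 enriched and 7 depleted unstimulated, then 3 and 9. Blood cell genes had 6 of 20 enriched and 8 depleted, then 1 and 10. Lung epithelial genes had 4 of 21 enriched and 11 depleted (52.4%), then 4 and 7, and 70.2% of their probes were measured. The 349 zinc finger genes (ZNF) followed the background, with 32.1% enriched and 29.8% depleted unstimulated.

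Base composition ran along with these differences. Of the 15508 core promoters outside chromosome 8, 12715 (82.0%) could be matched to a RefSeq promoter, from 250 bases before to 50 after the start. A promoter was called CpG-rich here with a GC content of at least 50% and an observed over expected CpG ratio of at least 0.6. The 8569 CpG-rich core promoters had median ratios of 0.28, 0.27, 0.19 and 0.17 in the 4 replicates, unstimulated first, and the 4146 CpG-poor ones -0.10, -0.15, -0.15 and -0.19. Of the CpG-rich promoters 41.7% were enriched and 20.7% depleted unstimulated, and of the CpG-poor ones 15.4% and 31.4%. After TGFβ1 the shares were 38.2% and 24.4% against 13.4% and 35.1%. The probes were measured in 77.6% and 46.8% of cases.

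At a GC content of 70% or more, 3464 promoters had median ratios of 0.58, 0.58, 0.39 and 0.39, and 51.8% of them were enriched unstimulated. Between 50% and 60% GC the medians were -0.07, -0.12, -0.14 and -0.17. Signal rose with GC in both channels, from medians of 0.09 to 0.28 under 50% GC to 5.11 to 6.09 at 70% or more in the SMAD3 channel, and from 0.02 to 0.33 to 4.05 to 5.01 in the mock channel. The part of base composition in the ratio was not tested, because no probe sequences were at hand.

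**Figure D5:**
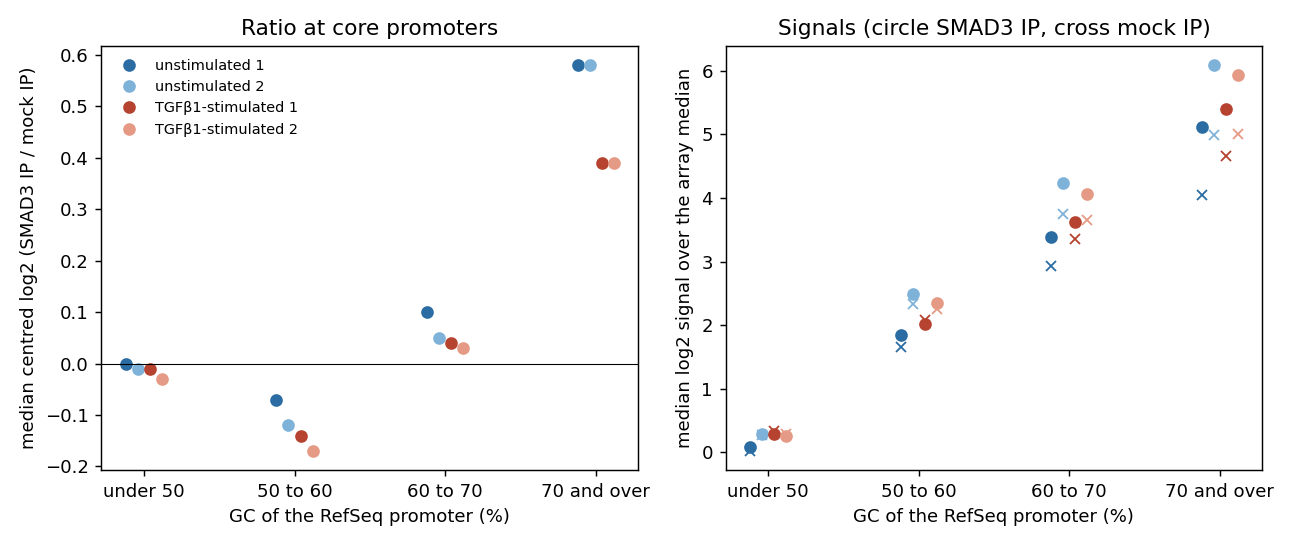
Median over core promoters in classes of GC content of the RefSeq promoter (x axis), 1 point per replicate, for the centred log2 ratio, SMAD3 over mock (left), and for the log2 signal over the array median in each channel (right, circles for SMAD3 IP and crosses for mock IP). Ratios are highest at 70% GC and over, at 0.39 to 0.58, and both signals rise with GC.

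The short SMAD box AGAC, searched on both strands, was in 82.8% of the matched core promoters and in 84.1% of all 27305 RefSeq promoters of the table. CAGAC, which contains AGAC, was in 44% against 45%. Core promoters with CAGAC had medians of 0.05, 0.02, 0.02 and 0, and those without it 0.09, 0.05, 0.05 and 0.03. GGCGCC was in 26.5% against 19.0% of all promoters, with medians of 0.36, 0.37, 0.23 and 0.21 where present and 0.03, 0.01, 0 and -0.01 where absent. It was held by 37.0% of the CpG-rich and 4.97% of the CpG-poor core promoters. Within the CpG-rich ones the median was 0.42 with it and 0.21 without it unstimulated, and 0.26 and 0.14 stimulated. In the CpG-poor ones it was -0.19 with and -0.13 without, so the sign of the gap turned.

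Motifs of other GC-rich letters behaved alike. GGCCG had medians of 0.25 where present and -0.02 where absent in unstimulated replicate 1, and the GC box GGGCGG, known from Sp1, had 0.23 and -0.01. The TATA box TATAAA was in 8.65% of core promoters, of which 22.1% were enriched unstimulated against 34.2% of those without it. It was held by 4.1% of the CpG-rich and 18.1% of the CpG-poor core promoters. Within the CpG-rich ones the median was 0.40 with it and 0.27 without it unstimulated, and 0.08 and 0.19 stimulated. In the CpG-poor ones it was -0.06 with and -0.16 without unstimulated, then -0.06 and -0.22. The lower share with the TATA box thus did not hold as a lower unstimulated median within either class. The AP-1 motif TGANTCA was in 5.51%, the CCAAT box in 36.7%, the ETS motif CCGGAAG in 15.2%, the E box CACGTG in 9.19% and the CRE motif TGACGTCA in 2.79%. The palindrome GTCTAGAC was found in 18 core promoters, 0.142%, against 0.201% of all promoters.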

How the data were processed

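SMAD3 chromatin immunoprecipitation DNA was hybridised to 8 two-colour Agilent promoter arrays, 4 of each slide design, and joined to 4 replicates. The authors deposited scanner output per array, made with Agilent Feature Extraction 9.5.1.1 per the file headers. The deposited intensity values are processed signals that the software had background-subtracted and dye-normalised, per the file headers. The authors also deposited log2 ratios of SMAD3 over mock signal, uncentred, which equal the log2 ratio of the processed signals to within rounding, with array medians of 0.237 to 0.725. The headers name an Agilent scanner and a 244K design, and the genome build of the probes is not given in them, so no probe coordinates are printed. All arrays were scanned on 1 date.

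Control spots and outlier spots were left out. Log2 ratios were centred on the array median, with no loess, since many probes may truly shift in a ChIP array. A gene-by-position unit is the mean over the probes of a gene in a position class. Group means, and the change as TGFβ1-stimulated minus unstimulated, were tested with limma 3.58.1 (R 4.3.3; Benjamini-Hochberg at 0.05 over all probes or all units). Classes of probes were compared over replicates by exact permutation (numpy 2.4.6). The scripts were tested on simulated data.

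Named genes are the 4 with the largest mean per contrast and direction that passed the test, had at least 2 core probes, all well above background on every array, and the same direction in each replicate (groups not overlapping for the change). Added to these are TGFβ1/SMAD3 target genes passing in any contrast and FOXA2, COL7A1, SMAD6, SMAD7, TGFB1, LTBP3 and TAGLN whatever their result. 1 gene that the rule names is not reported here, though it stays in the counts over its list. The members, lists and tests were chosen with earlier results of these data known. No probe sequence column was found, so GC strata, motifs within probes and probe sequences could not be run as planned. Probe length and RefSeq promoters (GRCh38.p14) took their place after the data were seen.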

Additional observations from a re-analysis of the deposited data

Results flagged for a closer look

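At 13 named core promoters the mean was called in both conditions with opposite signs, and the change was called as well. The change, TGFβ1-stimulated minus unstimulated on the log2 scale and tested with limma as in the report, was -14.49 at LIN37, -11.27 at C10orf28, -10.9 at LOC51035, -10.47 at ARL2 and -8.66 at RPAIN. It was 12.97 at U8, 9.06 at TRPV2, 8.83 at MYLPF and 8.01 at PTPN13. Among the TGFβ1/SMAD3 target genes it was 2.75 at COL1A2, 1.09 at ID3, -1.56 at TGFBI and -1.22 at LTBP3. With normexp none of the 13 was called in both conditions. The change stayed called with normexp at LIN37, C10orf28, RPAIN, U8, MYLPF, PTPN13 and COL1A2. It was lost at LOC51035, ARL2, TRPV2, ID3, TGFBI and LTBP3. No group held 4 or more samples, so single samples were not examined for standing apart.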

How the results depend on the processing

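Every alternative that was run kept the median of core above that of proximal upstream probes in both conditions. With normexp on raw signals the core probes called fell to 2.41% higher and 1.31% lower unstimulated, 7.0% and 5.0% stimulated, and 2.87% and 3.46% for the change, and core promoters of genes to 3.43% and 2.06%, 11.8% and 7.13%, and 3.99% and 4.87%. It kept 13 of 36 called changes among the named promoters and ended 23. Restricting the fit to probes well above background in both channels gave 40.6% of core probes higher unstimulated, 38.7% higher stimulated, and 21.7% higher and 29.8% lower for the change. With loess 14.2% of core probes were lower stimulated, and of core promoters of genes 15.4% were lower unstimulated, 46.2% higher and 15.9% lower stimulated, and 48.8% of the core probes called for the change were higher, against 42.9% with median centring.

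Core minus proximal upstream, in log2 ratio, was 0.156 unstimulated and 0.184 stimulated with loess, 0.633 and 0.682 with probes above background in both channels, 0.618 and 0.654 with at least 1 channel, 0.055 and 0.046 within 100 bp, 0.399 and 0.314 with means, 0.053 and 0.035 on slide 1, and 0.417 and 0.448 within probe length. Stimulated, it was 0.047 with normexp, 0.017 with all annotation sources and 0.004 on slide 2. Its change was 0.027 with loess, 0.05 with both channels, 0.036 with 1 channel, -0.085 with means and 0.031 within probe length, against -0.005. Probe length and all annotation sources were chosen after seeing the data.

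Leaving out 1 replicate, whose lone partner is then assumed to vary like the other group, gave 11.6% to 22.3% of core probes higher and 8.13% to 16.9% lower unstimulated, 14.6% to 18.4% and 14.0% to 15.7% stimulated, and 5.15% to 7.41% and 5.62% to 11.5% for the change. For genes these ranges were 22.8% to 31.5%, 15.3% to 23.1%, 21.3% to 28.3%, 20.1% to 26.8%, 11.9% to 12.5% and 15.8% to 18.3%. The core difference ran from 0.02 to 0.043, from 0.024 to 0.03, and from -0.016 to 0.006 for the change. Calls of the change were lost at SMAD7, JUNB, FOS, SNAI1, TMEPAI, SMURF1, SMURF2 and TIMP1, with the values given in the report.

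With the replicate block, 22.7% and 17.9%, 21.6% and 20.1%, and 11% and 14.4% of core probes were called. Deviations of samples of equal number correlated at 0.0276 over core probes, so the numbers were not taken as pairing. The block ended the calls of CDKN2B unstimulated and TGFB1 stimulated and added those of COL1A1 (change) and SMAD6 (unstimulated and change).

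Signs turned at DHRS7B stimulated (-0.31), U8 unstimulated (0.09), ID1 unstimulated (-1.23), BHLHB2 unstimulated (0.18), TAGLN stimulated (0.42) and TGFBI stimulated (0.59) within 100 bp. They turned with normexp, all stimulated, at NDUFB8 (0.01), CDKN1A (0.08), TGFB1 (0.08), TAGLN (0.05) and TGFBI (0.12), and unstimulated at TAGLN (0.01). With loess they turned at TGFB1 (0.04 unstimulated, 0.4 stimulated), LTBP3 (0.08), TGFBI (0.03) and SMURF2 (0.05), stimulated. With all annotation sources ID3 was 0.38 and TAGLN 0.39 unstimulated, and with probes above background TAGLN was 0.42 stimulated. The cause was not tested. GC-bin centring, GC strata and the replicate block with GC were not run, as no probe sequences were at hand, and a scan date block was not possible with 1 date. Of all probes 34.0% were well above background in both channels, which limits what dim probes show.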
